A study of Mus musculus with 2 samples.

Results

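The Map4k3 locus was taken as the 1.5 Mb of chromosome 17 from 80 to 81.5 Mb (mm10), and 30 of the 43941 windows in the table, each 50 kb long, lie wholly inside it. The series as a whole asks how the alleles of hybrid mouse cells differ in replication timing, genome folding, expression and accessibility. The assay was ATAC-seq, whose transposase inserts sequencing adapters where DNA is open. The single group is F121-6, a female hybrid embryonic stem cell line with a 129 and a cas (CAS) genome, in 2 replicates. The cells were grown in serum and LIF on mouse embryonic fibroblast feeders stopped with mitomycin C. The labels do not say whether the replicates were separate cultures, so their spread may be technical, and with 1 line the genome and the line cannot be told apart. The locus was chosen by the allelic counts of 2 of its windows, which were known to favour opposite alleles. Their values are therefore a description, and no test of them is used as support.

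Map4k3, also called GLK, encodes a serine/threonine kinase of the Ste20-like germinal centre kinase family. Kinases of this family act at the top of MAP kinase cascades that lead to JNK, and MAP4K3 is also known as a link between amino acid supply and the growth regulator mTORC1. A gene has 1 copy on each parental chromosome, and sequence differences between the strains let reads be assigned to one copy. Both copies share 1 nucleus and 1 set of diffusible factors.

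Each value is a whole number per window, allele and replicate. What it counts is not given in the sources used here. Between the alleles of a replicate the values varied less than independent reads would, with a squared difference of 0.335 (replicate 1) and 0.465 (replicate 2) of that of a binomial split. Depth in reads is therefore unknown, and 95% Clopper-Pearson intervals below cover counting error only. They assume a binomial split, from which these values depart. The columns summed to 44026 (129) against 46128 (CAS) in replicate 1, then 59812 against 59995. All 8 stem cell markers looked up had counts, with a median of 5.16 per window and column and a range from 1.75 to 10.4. The 8 fibroblast markers had a median of 1.5 (range 0.5 to 4.08), against 1.63 over 17074 coding genes with a count, and the part of feeder cells in the values was not tested. In a bulk sample, fewer cells with an open site and a less open site in each cell cannot be told apart.

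Upstream sequences are shown for 3 annotated starts in windows that the results describe, those of Map4k3, Gm33596 and Thumpd2. Each run is the 250 bases before an annotated start, on the minus strand of GRCm38.p6 (RefSeq), 5′ to 3′, and all 3 genes lie on chromosome 17. The run of Map4k3 spans chr17:80728026-80728275, in the window that follows the one with the CAS excess. It precedes a start inside the annotated gene, whose 5′ end, at 80728806, is the point from which distances are measured. The run of Gm33596, a lncRNA gene, spans chr17:80809435-80809684, in the window with the 129 excess. The run of Thumpd2, a gene of a methyltransferase-like protein with a THUMP domain, spans chr17:81065086-81065335, in another window with more 129 than CAS counts. It overlaps the 5′ end of the annotated gene, at 81065113. Capitals mark matches on either strand to GGGCGG (the GC box), ATGGCGG (the core of the YY1 motif), CCAAT or TATAAA.
Map4k3: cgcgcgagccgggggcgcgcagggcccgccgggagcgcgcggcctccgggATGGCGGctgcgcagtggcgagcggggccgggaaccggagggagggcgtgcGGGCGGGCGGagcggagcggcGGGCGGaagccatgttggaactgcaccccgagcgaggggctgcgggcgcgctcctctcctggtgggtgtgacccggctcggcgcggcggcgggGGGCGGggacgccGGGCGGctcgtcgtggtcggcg
Gm33596: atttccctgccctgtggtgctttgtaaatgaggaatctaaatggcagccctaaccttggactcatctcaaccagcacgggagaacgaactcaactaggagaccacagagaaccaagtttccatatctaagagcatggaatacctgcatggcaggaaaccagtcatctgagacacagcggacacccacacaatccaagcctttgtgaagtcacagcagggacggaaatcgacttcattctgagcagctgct
Thumpd2: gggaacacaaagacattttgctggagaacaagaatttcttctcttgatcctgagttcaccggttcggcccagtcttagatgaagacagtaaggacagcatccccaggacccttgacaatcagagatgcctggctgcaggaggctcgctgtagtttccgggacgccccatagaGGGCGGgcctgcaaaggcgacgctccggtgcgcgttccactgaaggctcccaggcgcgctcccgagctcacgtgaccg
The Map4k3 sequence was 82.4% G or C and held 45 CpG dinucleotides, more than 99.6% of 32851 RefSeq upstream sequences of the same length, whose median was 6. It held 5 matches to GGGCGG, some of them overlapping, and 1 to ATGGCGG. Among all upstream sequences 32.7% held GGGCGG and 2.21% held ATGGCGG, while 33.8% held CCAAT and 12.4% TATAAA. Thumpd2 had 16 CpG and 1 match to GGGCGG. Gm33596 had 5 CpG at 49.2% G or C, and none of the 4 motifs. Of the 15 coding genes of the locus, 12 had an entry in the RefSeq promoter table. These matches describe letters, not bound factors.

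Within the locus, counts were highest over Map4k3 and the gene-poor stretch beside it. The 5 windows from 80600001 to 80850000 held 107 of the 301 counts of the locus (35.5%). This run was set to include the 2 windows that led to the choice of the locus, which held 43 counts. Its share is therefore a description. The window from 80600001 to 80650000, inside Map4k3, was at 6 on every allele in both replicates. The window from 80700001 to 80750000, which holds the Map4k3 start printed above and the pseudogene Gm9959, had 7 and 7 in replicate 1 and 6 and 6 in replicate 2. In both windows the alleles were equal within each replicate, at levels above those of 99.0% and 99.3% of all windows.

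The CAS-high window, from 80650001 to 80700000, lies between these 2 balanced windows. It had 0 counts on 129 and 6 on CAS in replicate 1, then 1 on 129 and 8 on CAS in replicate 2. The CAS values stood at the level of the neighbouring windows, while the 129 values were near 0 in both replicates and did not overlap with them. Summed over replicates the CAS to 129 ratio was 14 to 1, with a counting interval from 2.13 to 592. In replicate 1, with 3 counts set as the limit for a count of 0 in a library, the 6 counts on CAS were 2.0-fold that limit. The counting error of the 6 is not included, so this is no lower bound on the ratio. The mean log2 ratio of 129 to CAS (pseudocount 0.5) was -3.10 ± 0.85 (SD, n = 2). The whole window lies inside Map4k3, and its near edge is 28806 bp from the annotated 5′ end of the gene. Exons and introns could not be separated with the annotation used here.

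The 129-high window, from 80800001 to 80850000, begins 150 kb further on. It had 9 counts on 129 and 3 on CAS in replicate 1, then 11 and 5 in replicate 2, and the alleles did not overlap. With 28 counts it was the fullest of the 30 windows, above 99.5% of all windows. The ratio of the sums was 2.5 (20 to 8 counts, counting interval 1.05 to 6.56) and the mean log2 ratio 1.25 ± 0.27 (SD, n = 2). No coding gene overlaps it, and it holds the lncRNA gene Gm33596, which spans 80807231 to 80809434. Map4k3, its nearest coding gene, ends 71195 bp away. So the low allele kept 3 and 5 counts here, whereas in the CAS-high window it kept 0 and 1. The window between the Map4k3 start and this one, from 80750001 to 80800000 with the lncRNA gene Gm33538, had 5 on 129 and 2 on CAS, then 4 and 3.

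**Figure D1:**
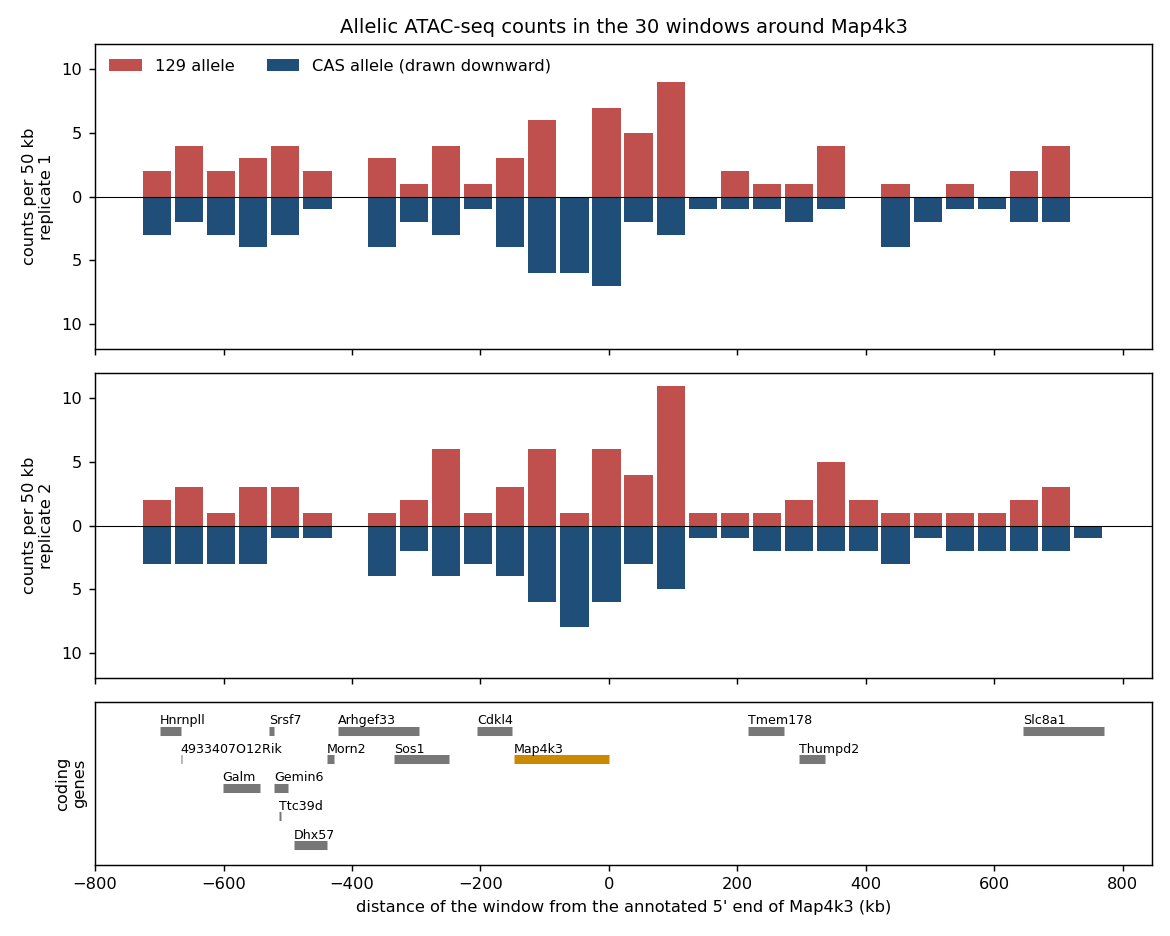
Counts per 50 kb window on the 129 allele (bars upward) and the CAS allele (bars downward) in replicate 1 (top) and replicate 2 (middle), against distance in kb from the annotated 5′ end of Map4k3, with the coding genes below (Map4k3 in yellow). In the window to the left of the one that holds 0 kb, the 129 bar falls to 0 and 1 where the CAS bar holds 6 and 8. Near 100 kb the 129 bar reaches 9 and 11.

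The same measure was counted over the whole table as a description. An excess of at least 3 counts, replicate 1 and replicate 2 alike, was met by 103 windows on 129 (0.234% of all windows) and by 119 on CAS (0.271%). The locus held 3 of them, namely the CAS-high window, the 129-high window and the Thumpd2 window. These are the values that led to the choice, so nothing is read from this share or from the pair count that follows. Within 150 kb of each other, start to start, 2 pairs in the table had opposite directions at this size. The Map4k3 pair was one of them.

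**Figure D2:**
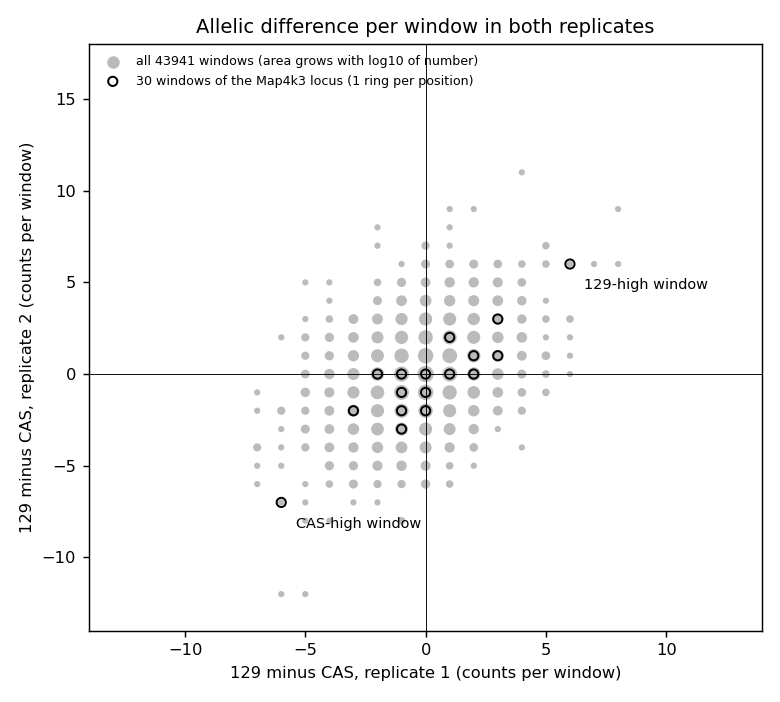
Difference of 129 minus CAS counts per window in replicate 1 (horizontal) and replicate 2 (vertical), for all 43941 windows (grey, area growing with the log10 of the number of windows) and for the 30 windows of the locus (rings). The labelled rings lie at 6 and 6 (129-high) and at -6 and -7 (CAS-high), while every other ring lies within 3 counts of 0 on both axes.

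Likeness was measured as the Euclidean distance between the square roots of the 8 counts of 2 windows 150 kb apart. The nearest pair (distance 1.42) lay on chromosome 12 at 113950001 to 114000000 and 114100001 to 114150000, 403587 bp or more from its nearest coding gene, Adam6a. Only genes annotated as protein-coding were searched, so genes of other types may lie in or beside these windows. Its first window had 0 and 1 on 129 against 7 and 7 on CAS, but its second was nearly balanced at 7 and 7 against 8 and 7. Next came pairs near Dusp26 and over Tti2, Mak16 and Fut10 on chromosome 8 (1.72), near and over Mrps30 on chromosome 13 (1.77), over Chd2 and Rgma and near Chd2 on chromosome 7 (1.79), and over Ipo11 and Dimt1 on chromosome 13 (1.94). At Chd2, the gene of a chromatin remodelling helicase, the first window had 1 and 2 on 129 against 4 and 4 on CAS, and the second 7 and 6 against 3 and 3. At Mrps30 the first window had 1 and 2 on 129 against 2 and 5 on CAS, and the second 8 and 9 against 5 and 7. In both of these pairs the windows favoured opposite alleles in both replicates.

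The opposite windows cancelled at a coarser scale. Over 250 kb, the stretch from 80500001 to 80750000 had 17 counts on 129 and 24 on CAS in replicate 1, then 17 and 27 in replicate 2. From 80750001 to 81000000 the order turned, with 17 and 8, then 18 and 12. Joined into 1 bin of 500 kb they came to 34 against 32 in replicate 1, then 35 against 39, so the alleles changed order between replicates. Its edgeR log2 difference of 129 minus CAS was -0.01 and is a description, since it holds the chosen windows. The bins on either side were tested with edgeR's quasi-likelihood test. From 80000001 to 80500000 the counts were 25 and 25, then 22 and 24 (log2 difference -0.02, adjusted p = 0.983). From 81000001 to 81500000 they were 13 and 15, then 18 and 19 (log2 difference -0.10, adjusted p = 0.983). In this fit 0 of 3858 bins passed (0% on either allele), with 110 at an unadjusted p under 0.05. DESeq2 also passed 0, and edgeR with the replicate as a block passed 2 bins on 129, neither of them here.

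**Figure D3:**
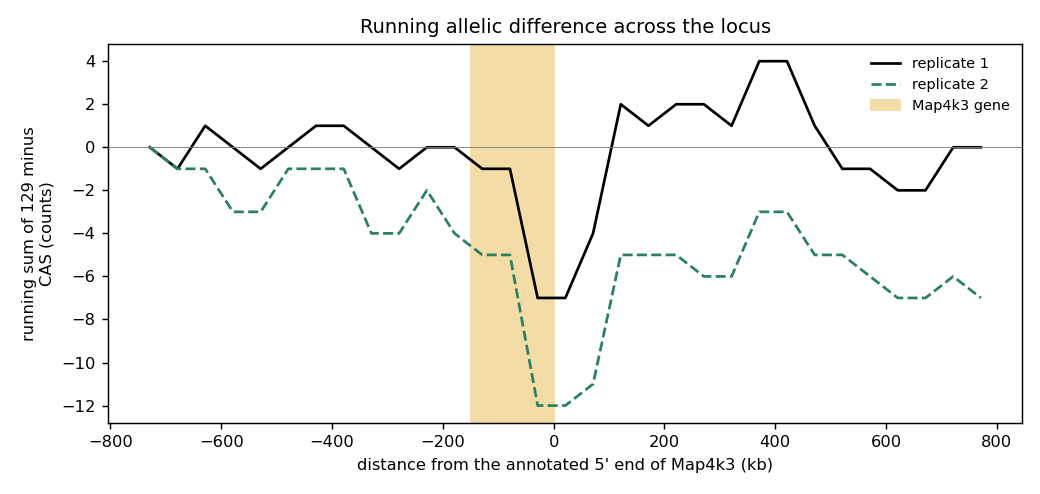
Running sum of 129 minus CAS counts along the locus, against distance in kb from the annotated 5′ end of Map4k3 (shaded gene), for replicate 1 (solid) and replicate 2 (dashed), drawn at the end of each window. Inside the gene the sums fall from -1 to -7 and from -5 to -12, and they return to 2 and -5 after the 129-high window.

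Summed over the whole locus the alleles were close to balance. Replicate 1 held 72 counts on either allele, and replicate 2 held 75 on 129 against 82 on CAS, a 129 share of 50.0% (interval 41.6 to 58.4%) and 47.8% (39.7 to 55.9%), or 48.9% ± 1.58 (SD, n = 2). Without the CAS-high and 129-high windows the share was 48.9% ± 1.61. The rest of chromosome 17, with 1568 windows, had 51.9% (50.2 to 53.6%) and 52.8% (51.3 to 54.3%). The intervals of the locus overlap those of the rest in each replicate. Such an overlap is not a test, and a difference between the 2 shares was not tested. The locus held 2.51 counts per window and column, against 1.23 on the rest of the chromosome.

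Map4k3 as a whole had fewer counts on 129 than on CAS, and most of that gap lay in 1 window. Over the 4 windows that share a base with it, 129 and CAS had 16 and 23 counts in replicate 1, then 16 and 24 in replicate 2. The 129 share was 41.0% (25.6 to 57.9%) and 40.0% (24.9 to 56.7%), or 40.5% ± 0.73 (SD, n = 2), and both intervals include 50%. Without the CAS-high window the counts were 16 and 17, then 15 and 16, and the share 48.4% ± 0.07. The last of the 4 windows, from 80550001 to 80600000, is shared with Cdkl4, a gene of the cyclin-dependent kinase-like family, and had 3 and 4 in each replicate.

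The other 14 coding genes were mostly covered by few counts. On the side of Map4k3's 3′ end lie RNA-processing and signalling genes. Hnrnpll, an RNA-binding regulator of splicing, had 6 on 129 against 5 on CAS in replicate 1, then 5 against 6. Galm, the gene of galactose mutarotase, had 5 and 7, then 4 and 6. The window shared by the splicing factor gene Srsf7, the SMN-complex gene Gemin6, Ttc39d and the 3′ end of the helicase gene Dhx57 had 4 and 3, then 3 and 1. Dhx57 over both of its windows had 6 and 4, then 4 and 2, and Morn2, which shares 1 of them, had 2 and 1, then 1 and 1. The short gene 4933407O12Rik shares a window with Hnrnpll that had 4 and 2, then 3 and 3. Values of 1 to 4 per allele dominate here, and a single count decides many of these orders.

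Sos1, which loads RAS with GTP downstream of growth factor receptors, had 8 and 9, then 9 and 10 over 3 windows. The window with its start, from 80450001 to 80500000, was the fourth fullest of the locus, with 4 and 3, then 6 and 4. Arhgef33, a guanine nucleotide exchange factor gene, had 4 and 6, then 3 and 6, and shares 2 of its 3 windows with Sos1. Cdkl4 had 4 and 5, then 4 and 7. A window over Morn2 and Arhgef33, from 80300001 to 80350000, was at 0 in all 4 columns.

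Beyond the 129-high window the counts were low. Tmem178, a transmembrane protein gene, had 4 and 4, then 4 and 5. Its neighbour Thumpd2 had 5 and 3, then 7 and 4, and the window with its start, from 81050001 to 81100000, had 4 on 129 against 1 on CAS, then 5 against 2. The mean log2 ratio there was 1.36 ± 0.32 (SD, n = 2). A gene-free window at 81150001 to 81200000 went the other way, with 1 and 4, then 1 and 3 (-1.40 ± 0.26). The 5 windows from 81100001 to 81350000, with no coding gene, ranged from 0 to 4 per column. Slc8a1, the gene of the sodium-calcium exchanger NCX1, of which 3 windows lie in the locus, had 6 and 4, then 5 and 5.

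Of the 15 coding genes, 5 were higher on 129 in both replicates (Srsf7, Gemin6, Ttc39d, Dhx57 and Thumpd2) and 5 higher on CAS (Galm, Arhgef33, Sos1, Cdkl4 and Map4k3). Over all 17074 coding genes with a count these shares were 14.5% and 15.5%. Srsf7, Gemin6 and Ttc39d share their single window, so the genes are not independent. In each of the 30 intervals, 1 per gene and replicate, 50% was included. With few counts the intervals are wide (1.26 to 98.7% for Morn2 in replicate 2). The share of such intervals over all coding genes is not given here, so no balance is read from this.

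**Figure D4:**
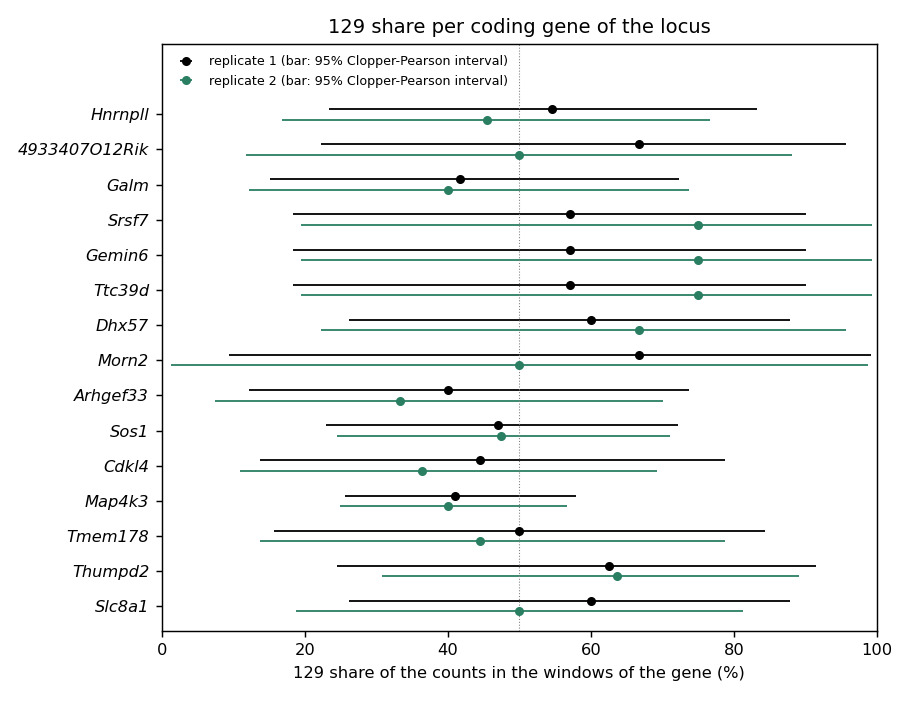
Share of counts on the 129 allele, in percent, over the windows of each coding gene of the locus, in replicate 1 (black) and replicate 2 (green), with 95% Clopper-Pearson intervals as bars. Every bar crosses 50%, but the bars are wide because the counts are few. Map4k3, at 41.0% and 40.0%, has the narrowest bars.

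Window by window, 6 of the 30 were higher on 129 in both replicates and 7 higher on CAS, against 8.96% and 9.87% of all windows. The locus is fuller than most of the table, with a median of 9 counts per window against 3. No window of the locus changed from one allele to the other between replicates (0 of 30). The share of such changes over the whole table is not given here, so nothing is read from this count. The CAS-high and 129-high windows were also chosen for agreeing in both replicates. Dividing each column by its total breaks ties and gave 12 windows on 129 and 7 on CAS. Of the 60 pairs of values of 1 allele and window in the replicates, 24 were equal, against 47670 of 87882 in the whole table. In the locus 51 differed by at most 1 count (85.0%, against 86.3% in the whole table), and the largest difference was 2. The table's windows hold fewer counts, so these shares are not like for like.

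In the edgeR quasi-likelihood test over all windows, 27 of the 30 had at least 4 counts and were tested, and 0 of 21939 windows in the table passed at an adjusted p of 0.05 (0% on either allele), with 524 at an unadjusted p under 0.05. DESeq2's Wald test passed 0 as well, with 11 at an unadjusted p under 0.05, and limma on square roots passed 41 windows on 129 (0.187%) and 50 on CAS (0.228%). Of the limma windows 2 lie in the locus, the CAS-high and the 129-high window. Both were chosen by their counts, so these calls are a description and no support. Apart from the CAS-high and 129-high windows, 25 windows of the locus were tested and 0 had an unadjusted p under 0.05 in edgeR. The lowest was that of the Thumpd2 window (edgeR adjusted p = 0.995). Limma gave 4 windows of the locus an unadjusted p under 0.05. Beside the CAS-high and 129-high windows these were the Thumpd2 window (limma adjusted p = 0.163) and that from 81150001 to 81200000 (limma adjusted p = 0.269). Just inside the ends of the locus, the first window had 2 and 3, then 2 and 3, and the last 0 and 0, then 0 and 1. Just outside, the window before had 5 and 4, then 4 and 3, and the one after was at 0.

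Map4k3 had more counts per window than the other kinases of its family, over windows that share a base with the gene and can include flanking sequence. It averaged 4.94 counts per window and column, a level reached by 757 of 17074 coding genes (4.43%). The 6 other family members ranged from 0.472 (Tnik) to 2.25 (Map4k4). Of these 6, Map4k2 (4 and 3 in each replicate) and Map4k4 (7 and 6, then 8 and 6) were higher on 129 in both replicates and 0 were higher on CAS, where all coding genes had 14.5% and 15.5%. Their median 129 share was 53.1%, against 50.0% over all coding genes.

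Of the 11 JNK cascade genes, 10 had windows in the table, with 1 higher on 129 in both replicates and 3 higher on CAS, beside 14.5% and 15.5% of all coding genes. Mapk8, the gene of JNK1, had 1 on 129 against 3 on CAS in each replicate, and Mapk9, the gene of JNK2, had 4 and 3 in each. Map3k1 had 6 and 8, then 5 and 6, and Map3k7, which encodes TAK1, had 3 and 4 in each. The median share of this list was 50.0%.

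Among 18 genes of amino acid sensing and mTORC1, 2 were higher on 129 (Rragd and Tsc1), 2 on CAS (Mtor and Lamtor2) and 14 on neither, with a median share of 50.0%. Rragd, a RAG GTPase that recruits mTORC1 to lysosomes, had 5 and 3, then 4 and 1. Tsc1, a brake on mTORC1, had 2 and 1 on 129 and 0 on CAS. Over the 34 genes of these 3 lists with a count, 5 were higher on each allele, near the 14.5% and 15.5% of all coding genes. None of them held a window with a difference of 3 or more counts in the same direction in both replicates (0 of 34 genes). Such windows are rare in the whole table (0.234% of all windows on 129 and 0.271% on CAS). The share over all coding genes was not counted, so nothing is read from this 0.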

How the data were processed

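The labels and the column names give 1 group, with 2 alleles in each of 2 replicates. The authors deposited whole-number counts per 50 kb window, from 0 to 18. Tools named in the submitters' processing notes are bedtools, SAMtools, MACS2 and Bowtie2, with no version or role, and the build is mm10. For what was counted and how alleles were assigned, the procedure is not given in the sources used here. Members and lists were chosen with earlier results of these data known.

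Genes, from RefSeq on GRCm38.p6, were matched to windows by any shared base. The named genes are all coding genes of the locus and the fixed lists, and the named windows elsewhere are the 5 most alike pairs. Counts were tested in R 4.3.3 with edgeR 4.0.16 (quasi-likelihood, TMM, Benjamini-Hochberg) on windows with at least 4 counts and 500 kb bins with at least 20. Alternatives used DESeq2 1.42.0, limma 3.58.1, other scaling, filters and bins. The fits were tested on simulated data. Each library yields both alleles of its replicate, which pairs them, with deviations correlated at r = 0.363 over 21939 windows. Map2k7 was not analysed here, and 1 further pair of windows is not reported here.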

Additional observations from a re-analysis of the deposited data

How the results depend on the processing

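With 1 replicate left no residual degrees of freedom remain, so edgeR was not run without a replicate. The count of 0 windows called by edgeR was also found without a filter, with DESeq2 size factors, 1 library size per replicate, a replicate block, a threshold of 0.1 and the DESeq2 Wald test. With at least 10 counts per window edgeR called 2 windows on 129, neither in the locus. Limma on centred square roots called 91 windows, of which 2, the CAS-high and the 129-high window, lie in the locus (the cause was not tested). For 500 kb bins the replicate block called 2 bins, none in the locus, and the other alternatives 0. Pairing by replicate changed no other call. The 129 share of the Map4k3 windows was 43.5% with 1 window added on each side, which changes the members, and from 40.0 to 41.0% without a replicate. The share of the locus ran from 47.8 to 50.0% without a replicate and was 49.5% after dividing by column totals. Of the 13 windows higher on 1 allele in both replicates, 4 were so by at least 2 counts and 3 by at least 3, and without a replicate, an alternative chosen after seeing the data, 17 to 21 were higher on 1 allele. The log2 ratio of the CAS-high window ran from -3.68 to -2.49 with pseudocounts of 0.25 and 1 and from -3.70 to -2.50 without a replicate. That of the 129-high window ran from 1.16 to 1.30 and from 1.06 to 1.44. Values of a few counts limit all of these.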

Other observations

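The replicates differed in level, and more so where counts were few. Over the table, replicate 2 held 1.33 times the counts of replicate 1, but over the locus 1.09 times and over the Map4k3 windows 1.03 times. In the 16 windows of the locus with 9 or more counts the ratio was 1.01, and in the 13 with 1 to 8 counts it was 1.46. Over the table these ratios were 1.19 (7926 windows) and 1.501 (26491 windows).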
